A study of Rattus norvegicus with 24 samples.

Results

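Genes that encode carriers of amino acids were followed in the hippocampus and neocortex of 24 rats at embryonic day 18 by RNA sequencing. The 10 genes are the entries of the deposited table with the symbols Slc7a5, Slc3a2, Slc7a1, Slc7a3, Slc7a8, Slc1a4, Slc1a5, Slc38a1, Slc38a2 and Slc6a9, out of 17420 genes in all. Sprague-Dawley dams received an intraperitoneal injection of saline, methylazoxymethanol acetate (MAM, a DNA-alkylating agent that stops dividing cells, 22 mg/kg) or polyinosine:cytosine (Poly I:C, a synthetic double-stranded RNA that triggers an antiviral response, 7.5 mg/kg). The injection was given on gestational day 17, and the pups were collected after 18 hours. Low Protein dams ate a diet with 6.1% protein from gestational day 11 to day 18, and control dams an isocaloric diet with 20.3% protein. The sources used here do not give the diet of the MAM and Poly I:C dams or an injection of the Low Protein dams. Each group held 6 pups, 3 from each of 2 litters, and a pup is named here by its litter and its number, so that pup 2-1 is the pup numbered 1 of litter 2. The dam received the treatment and the pups of a litter share her, so p-values measure the spread between pups. With 2 litters against 2, an exact test of dams cannot go below p = 0.333, so litters were compared by a limma fit on the 8 litter means.

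Amino acids enter cells through families of membrane carriers with overlapping substrates. Slc7a5 encodes the light chain of an exchanger that brings in leucine and other large neutral amino acids. It works only when bound to the heavy chain encoded by Slc3a2, which also carries the light chain Slc7a8, and this pair sits in the endothelial cells of brain capillaries, where it moves large neutral amino acids from blood to brain. Slc7a1 and Slc7a3 carry the cationic amino acids arginine and lysine, Slc1a4 and Slc1a5 exchange alanine, serine, cysteine or glutamine, Slc38a1 and Slc38a2 take up small neutral amino acids together with sodium, and Slc6a9 takes up glycine. When amino acids run short, uncharged transfer RNA activates the kinase encoded by Eif2ak4, and the factor ATF4 is then made and switches on genes for amino acid synthesis and several of these carriers.

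The promoters of the carriers are shown because ATF4 binds a short element, here searched as TGATGNAA on both strands, that can lie near the start site of its targets. Windows from 250 bases before to 50 bases after the start site were taken from RefSeq (build GRCr8) and were found for 8 of the 10 genes. Slc3a2 had 2 start sites, which made 9 windows, and Slc7a3 and Slc1a5 had no entry. The letters occurred in 3 of the 9 windows, in 4 of 19 windows of other ATF4 target genes, in 0 of 26 windows of other amino acid carriers, and in 3.98% of all 33469 windows in the table. In the 3 carriers and in Pycr1, an ATF4 target that makes proline, the match in capitals stands in these stretches, each written 5′ to 3′ in the direction of transcription.
Slc7a1 (chr12:11664432-11664491, plus strand): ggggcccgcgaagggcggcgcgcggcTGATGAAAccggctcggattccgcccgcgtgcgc
Slc1a4 (chr14:98761764-98761812, minus strand): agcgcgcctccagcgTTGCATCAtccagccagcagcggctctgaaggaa
Slc38a1 (chr7:129681510-129681569, minus strand): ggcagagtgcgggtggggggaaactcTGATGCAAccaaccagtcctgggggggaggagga
Pycr1 (chr10:106420910-106420969, minus strand): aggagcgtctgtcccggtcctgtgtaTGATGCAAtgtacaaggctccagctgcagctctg
Counted from the start site of its window, the match began 30 bases before it in Slc7a1, 235 in Slc1a4, 142 in Slc38a1 and 131 in Pycr1. The annotated genes of Slc1a4 and Slc38a1 begin upstream of these sites, at bases 98761672 and 129681727. The match of Slc38a1 therefore lies inside the annotated gene. In Slc1a4 the element lay in the reverse direction.

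No match lay in the windows of Slc7a5 and Slc3a2, whose levels followed each other most closely among the pups. The window of Slc7a5 and 1 of the 2 of Slc3a2 are shown in full, with no letter in capitals.
Slc7a5 (chr19:66872363-66872662, minus strand): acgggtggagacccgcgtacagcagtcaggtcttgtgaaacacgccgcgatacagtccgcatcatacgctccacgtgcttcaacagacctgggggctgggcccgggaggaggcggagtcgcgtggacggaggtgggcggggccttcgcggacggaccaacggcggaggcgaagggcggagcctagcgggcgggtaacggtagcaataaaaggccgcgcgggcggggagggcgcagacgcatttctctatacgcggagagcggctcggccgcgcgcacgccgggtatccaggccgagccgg
Slc3a2 (chr1:215048015-215048314, minus strand): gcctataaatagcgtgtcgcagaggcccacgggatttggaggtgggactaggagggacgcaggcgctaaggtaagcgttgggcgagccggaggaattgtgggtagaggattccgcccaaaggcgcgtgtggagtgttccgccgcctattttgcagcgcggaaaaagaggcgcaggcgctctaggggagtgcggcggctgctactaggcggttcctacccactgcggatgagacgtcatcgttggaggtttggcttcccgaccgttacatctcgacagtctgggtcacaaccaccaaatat
Absence of the letters from these windows says nothing of elements elsewhere in the genes.

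The values are TPM as deposited, which are normalized to the library and are read here as divided by the genomic span of a gene, introns included. Depth, estimated from the steps of low values, lay between 24.3 and 63.0 megareads per pup. At these depths the estimated reads per pup ran from 96 to 456 for Slc1a5, the carrier with the fewest, and from 4863 to 14043 for Slc38a2, the carrier with the most. Genes of cortical neurons were present in every pup, with Neurod6 at 46.8 to 127 TPM and Tbr1 at 10.4 to 16.9 TPM. From the same list of cortex and hippocampus genes, Emx2 lay at 2.10 to 4.36 TPM and Lhx2 at 3.57 to 7.73 TPM. Zbtb20, a gene of the developing hippocampus, did not exceed 0.0207 TPM. Since levels of different genes depend on their span, this low value does not show how much hippocampus the samples held. No pups had identical values, and the median correlation of a pup with its group lay between 0.978 (Poly I:C pup 1-3) and 0.993.

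On the length-normalized scale, the mean level over all pups was highest for Slc38a2 (13.8 TPM), followed by Slc3a2 (7.28), Slc7a5 (4.26), Slc7a3 (2.20), Slc7a1 (0.928), Slc1a4 (0.761), Slc6a9 (0.675), Slc38a1 (0.622), Slc7a8 (0.551) and Slc1a5 (0.321). By estimated reads, which are not divided by length, Slc7a5 came before Slc3a2, with medians of 5384 and 4691 reads per pup. The deposited values were read here as divided by the genomic span of a gene, so the order between genes holds on that scale only. Slc38a2, Slc3a2, Slc7a5 and Slc7a3 had a mean above 1 in every group, the limit that 5086 genes passed and that the methods set for testing. The other 6 carriers did not pass it and were compared in a second fit over the 12516 genes whose mean reached 0.01, in which all 10 carriers were present. In bulk tissue, fewer cells of a type and less RNA per cell cannot be told apart.

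**Figure D1:**
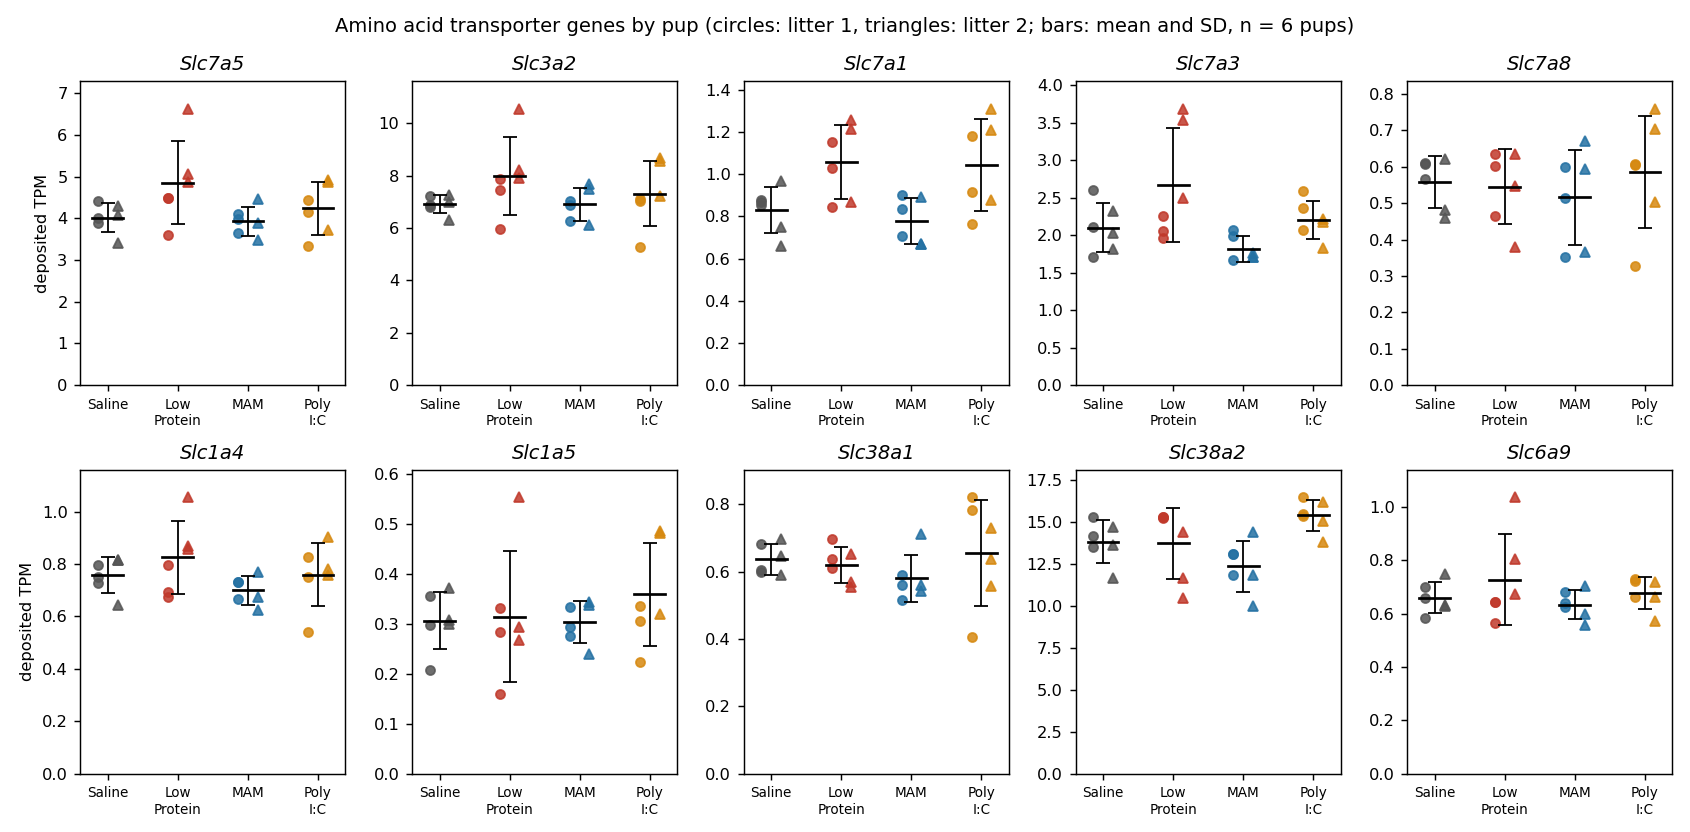
Deposited TPM (vertical axes, each starting at 0) of the 10 carrier genes in the 4 groups. Circles are pups of litter 1, triangles pups of litter 2, and the bars give the mean and SD of 6 pups. Slc7a5 and Slc7a3 stood highest in Low Protein litter 2, where Slc7a5 reached 6.63 and Slc7a3 reached 3.69.

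The main question was whether carrier genes differed after the Low Protein diet. Slc7a5 and Slc7a3 rose at the threshold of the methods, an unadjusted p under 0.05 in limma, and Slc7a1 rose in the second fit. Back from the log2 scale, the differences were 1.19-fold for Slc7a5, 1.24-fold for Slc7a3 and 1.27-fold for Slc7a1 over the saline-treated controls. Slc3a2, the partner of Slc7a5, was 1.14-fold and did not pass. None of the 10 carriers passed after adjustment over all genes, where the lowest adjusted p was 0.570.

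Slc7a5 measured 4.41, 3.89 and 4.02 TPM in saline litter 1 and 4.07, 4.31 and 3.41 in saline litter 2. In the Low Protein group it measured 4.50, 4.48 and 3.60 in litter 1 and 5.06, 6.63 and 4.87 in litter 2. Above every saline pup lay 5 of 6 Low Protein pups, and pup 1-3 lay among them, so the groups overlapped. The group means were 4.86 ± 1.00 (SD, n = 6) and 4.02 ± 0.353 (SD, n = 6), and the difference was 0.25 on the log2 scale (SE 0.11, 95% interval 0.025 to 0.48, limma p = 0.0315, adjusted p = 0.570, exact two-sided permutation p = 0.0628).

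Slc3a2 measured 7.21, 6.79 and 6.86 TPM in saline litter 1 and 6.98, 7.25 and 6.31 in litter 2. In the Low Protein group it measured 7.88, 7.47 and 5.95 in litter 1 and 7.92, 10.6 and 8.21 in litter 2. As for Slc7a5, 5 of 6 Low Protein pups lay above every saline pup, but pup 1-3 lay below every one. The difference was 0.19 on the log2 scale (SE 0.11, 95% interval -0.031 to 0.42, limma p = 0.0883, adjusted p = 0.634) and exact permutation p = 0.108.

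Slc7a1, the widely expressed carrier of arginine and lysine, measured 0.870, 0.856 and 0.878 TPM in saline litter 1 and 0.751, 0.970 and 0.662 in litter 2. In the Low Protein group it measured 1.15, 1.03 and 0.846 in litter 1 and 1.21, 1.26 and 0.867 in litter 2. Above every saline pup lay 4 of 6 Low Protein pups, 2 of them in each litter. The difference was 0.35 on the log2 scale (SE 0.14, 95% interval 0.060 to 0.63, limma p = 0.0199, adjusted p = 0.667), and Slc7a1 had the lowest exact permutation p of the 10 carriers in this comparison, 0.0303.

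Slc7a3, a cationic amino acid carrier of neurons, measured 1.71, 2.11 and 2.60 TPM in saline litter 1 and 1.82, 2.32 and 2.03 in litter 2. In the Low Protein group it measured 2.25, 2.06 and 1.96 in litter 1 and 2.49, 3.54 and 3.69 in litter 2. Pups 2-2 and 2-3 lay above every saline pup, and the other 4 lay within the range of saline. The difference was 0.31 on the log2 scale (SE 0.14, 95% interval 0.034 to 0.59, limma p = 0.0294, adjusted p = 0.570) and exact permutation p = 0.134. Slc7a3 lies on the X chromosome. The paper states that the sexes were combined, and the part of the sex of the pups was not tested.

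The higher means of Slc7a5, Slc3a2 and Slc7a3 rested in large part on litter 2 of the Low Protein group, and that of Slc7a1 less so. Without that litter the log2 difference from saline was 0.060 for Slc7a5, 0.033 for Slc3a2, 0.0079 for Slc7a3 and 0.28 for Slc7a1, and limma called none of them. Without Low Protein litter 1 it was 0.45 for Slc7a5, 0.36 for Slc3a2, 0.62 for Slc7a3 and 0.41 for Slc7a1, and all 4 were called, as were Slc1a4 (0.29) and Slc6a9 (0.33). Single pups of either group also ended calls. Slc7a5 was no longer called without Low Protein pup 2-2 (0.16), Low Protein pup 2-1 (0.24), saline pup 1-2 (0.25) or saline pup 2-3 (0.21). Slc7a3 was no longer called without Low Protein pup 2-2 (0.22), Low Protein pup 2-3 (0.21), saline pup 1-1 (0.26) or saline pup 2-1 (0.28). Slc7a1 was no longer called without Low Protein pup 2-2 (0.29) or saline pup 2-3 (0.28). Slc3a2 was called once Low Protein pup 1-3 was left out (0.28). Without saline litter 1 the calls of Slc7a5 (0.29) and Slc7a3 (0.34) were lost, and without saline litter 2 those of Slc7a5 (0.22), Slc7a3 (0.29) and Slc7a1 (0.27). On litter means the calls of Slc7a5 (0.25) and Slc7a3 (0.31) were lost and that of Slc7a1 (0.35) stood. Whether the litters of the Low Protein group differed for reasons of the dam was not tested.

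The remaining 6 carriers did not pass the test. Slc1a4, which supplies the brain with serine, differed by 0.11 on the log2 scale (95% interval -0.12 to 0.34, exact permutation p = 0.359), and Slc6a9 by 0.12 (95% interval -0.11 to 0.34, exact permutation p = 0.444). Slc38a2, which cells starved of amino acids are known to induce, differed by -0.021 (95% interval -0.22 to 0.17, exact permutation p = 0.885). Within the Low Protein group, Slc38a2 measured 15.3 TPM in each pup of litter 1 and 11.7, 14.4 and 10.5 TPM in litter 2, so that litter 2, highest for Slc7a5 and Slc7a3, was lower for Slc38a2. Slc7a8, Slc1a5 and Slc38a1 differed by -0.048, -0.036 and -0.040 on the log2 scale, with intervals that reached -0.45 to 0.35, -0.50 to 0.43 and -0.30 to 0.22.

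Over the 10 carriers, 6 were higher in Low Protein than in saline, and the median log2 difference was 0.11, against -0.013 over the 12516 genes of the same fit. Of the 4 carriers above the limit 2 were called, where 8.24% of 5086 genes were called, and of all 10 carriers 3 were called, where 7.29% of 12516 genes were. After adjustment 0 carriers were called in either fit by limma, as were 0% of all genes. The 10 carriers kept the same count of 6 higher and 3 called under both other scalings of the libraries.

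**Figure D2:**
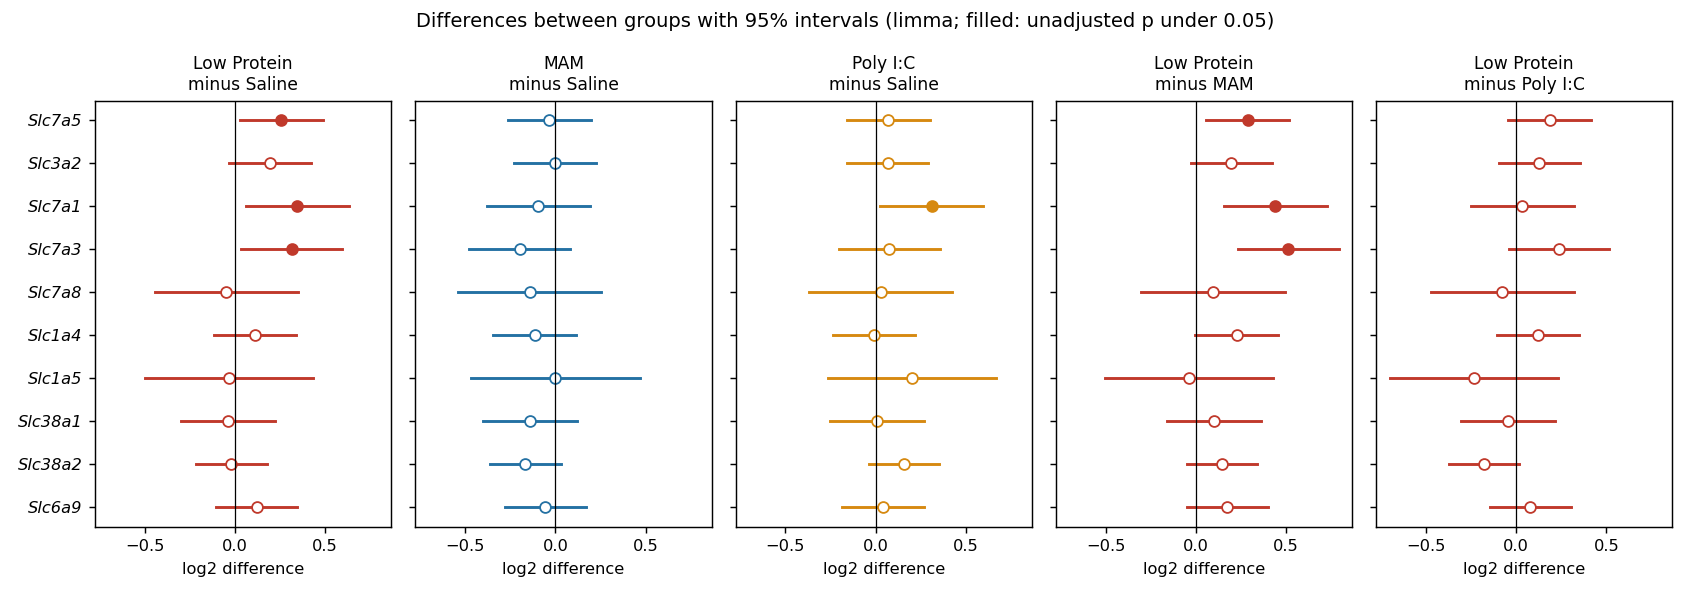
Log2 differences between groups (horizontal axes) of the 10 carrier genes in 5 comparisons, with 95% intervals from limma and filled points where the unadjusted p was under 0.05. The filled points are Slc7a5, Slc7a1 and Slc7a3 for Low Protein against saline and against MAM, and Slc7a1 for Poly I:C against saline.

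Low Protein was also compared with MAM, which asks whether the carriers differed between a dietary and an antimitotic treatment. The largest difference among the carriers was that of Slc7a3, which measured 1.67, 2.07 and 1.99 TPM in MAM litter 1 and 1.70, 1.71 and 1.76 in litter 2. Its log2 difference, Low Protein minus MAM, was 0.51 (SE 0.14, 95% interval 0.23 to 0.79, limma p = 0.000913, adjusted p = 0.139, exact permutation p = 0.0108). All 6 Low Protein pups lay above the MAM median and 4 lay above every MAM pup.

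Slc7a1 measured 0.901, 0.837 and 0.708 TPM in MAM litter 1 and 0.892, 0.668 and 0.669 in litter 2. It differed by 0.44 on the log2 scale (SE 0.14, 95% interval 0.15 to 0.72, limma p = 0.00416, adjusted p = 0.311, exact permutation p = 0.0173), with 4 of 6 Low Protein pups above every MAM pup. Slc7a5 measured 4.09, 3.98 and 3.65 TPM in MAM litter 1 and 4.47, 3.89 and 3.47 in litter 2. It differed by 0.29 (SE 0.11, 95% interval 0.058 to 0.52, limma p = 0.0164, adjusted p = 0.333, exact permutation p = 0.0433).

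Slc3a2 lay between 6.13 and 7.68 TPM in the MAM pups and differed by 0.20 on the log2 scale (95% interval -0.029 to 0.42, limma p = 0.0852, exact permutation p = 0.128), and Slc1a4 differed by 0.23 (95% interval -0.0030 to 0.45, limma p = 0.0528, exact permutation p = 0.0606). Without Low Protein litter 2, Slc7a1 was still called against MAM (0.37 on the log2 scale), whereas Slc7a5 (0.093) and Slc7a3 (0.21) were not. Slc38a2, at 0.14 with both litters, was then called higher than in MAM (0.31). On litter means Slc7a5, Slc7a1 and Slc7a3 were each called against MAM. Slc7a5 was also not called against MAM without Low Protein pup 2-2 (0.19), MAM litter 1 (0.28) or MAM litter 2 (0.29). Slc7a1 passed against MAM with any single pup or litter left out, with log2 differences from 0.37 to 0.51.

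Against MAM, 9 of 10 carriers were higher in Low Protein, with a median of 0.19 on the log2 scale against 0.046 over all 12516 genes. Of the 4 carriers above the limit 2 were called, where 11% of genes were called, and 3 of 10 in the second fit, where 8.85% of genes were. After adjustment 0 carriers were called, against 0.0983% and 0.0399% of genes in the fits. Of the 560 genes called, 447 were higher in Low Protein with the values as deposited, but only 277 of 509 with scaling by the median of ratios. With that scaling, 9 of 10 carriers were still higher and 3 were called.

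MAM and Poly I:C were each compared with the same saline-treated controls that served for the Low Protein group. In MAM no carrier was called, where 11.2% of 5086 and 10.1% of 12516 genes were called, and 0.0197% and 0.016% after adjustment. The log2 differences lay between -0.20 and 0.00049 with a median of -0.10, against -0.070 over all genes of that fit. As deposited 1 of 10 carriers was higher in MAM, and 3 of 10 with scaling by the median of ratios. Slc7a3 differed by -0.20 (95% interval -0.48 to 0.081, limma p = 0.155, exact permutation p = 0.0758) and Slc38a2 by -0.17 (95% interval -0.36 to 0.029, limma p = 0.0919, exact permutation p = 0.0909).

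In Poly I:C, Slc7a1 rose in the second fit. It measured 1.18, 0.914 and 0.765 TPM in litter 1 and 1.31, 1.21 and 0.876 in litter 2, and 3 of the 6 pups lay above every saline pup. The log2 difference was 0.31 (SE 0.14, 95% interval 0.026 to 0.60, limma p = 0.0340, adjusted p = 0.486, exact permutation p = 0.0693). The Slc7a1 call was lost without Poly I:C litter 2 (0.19) or saline litter 2 (0.24). It was also lost without Poly I:C pup 1-1, 2-1 or 2-2 or saline pup 2-1 or 2-3, with differences from 0.24 to 0.28.

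Slc38a2 measured 15.5, 15.3 and 16.5 TPM in Poly I:C litter 1 and 15.1, 16.2 and 13.8 in litter 2, against 13.5, 14.2, 15.3, 11.7, 14.7 and 13.6 TPM in the saline pups. Its log2 difference of 0.16 did not pass in limma (95% interval -0.037 to 0.35, p = 0.108), while the exact permutation test gave p = 0.0303. Over the 10 carriers 9 were higher in Poly I:C, with a median of 0.068 on the log2 scale against 0.0046 over all genes. Of the 4 carriers above the limit 0 were called, where 9.95% of genes were, and of all 10 carriers 1 was called, where 9.46% of genes were. After adjustment 0 carriers and 0% of genes were called in either fit.

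Low Protein and Poly I:C did not differ for any carrier at the threshold, where 5.31% of 5086 and 4.72% of 12516 genes were called, and 0.0393% and 0.016% after adjustment. The log2 difference, Low Protein minus Poly I:C, was 0.19 for Slc7a5 (95% interval -0.045 to 0.42), 0.24 for Slc7a3 (95% interval -0.042 to 0.52), 0.034 for Slc7a1 (95% interval -0.25 to 0.32) and -0.18 for Slc38a2 (95% interval -0.37 to 0.016). All 4 intervals include 0, and that of Slc7a3 reaches 0.52. Without Low Protein litter 1, Slc7a5 (0.38) and Slc7a3 (0.54) were called higher in Low Protein, as were Slc3a2 (0.29), Slc1a4 (0.30) and Slc6a9 (0.29), and Slc38a2 lower (-0.35). Without Low Protein pup 1-3 alone, Slc7a5 (0.27) and Slc7a3 (0.32) were called higher and Slc38a2 lower (-0.21).

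The order of the group means was Low Protein, Poly I:C, saline and MAM for Slc7a5, Slc7a1 and Slc7a3. For Slc7a5 and Slc7a3 no neighbours in this order differed at the threshold, and for Slc7a1 Poly I:C and saline did. For Slc38a2 the order was Poly I:C, saline, Low Protein and MAM, in which limma called no neighbours different, while the exact permutation test set Poly I:C apart from saline, with saline and Low Protein at 13.8 ± 1.26 and 13.7 ± 2.12 TPM (SD, n = 6).

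The other amino acid carriers give the setting for these 10 genes. Of 30 listed carriers, 29 were in the table and 27 in the second fit, among them carriers of glutamate, glycine, proline and taurine. In Low Protein against saline 0 were called higher and 3 lower, where 7.29% of 12516 genes were called, 567 of them lower. The median log2 difference was -0.081, against -0.013 over all genes of that fit. The 3 were Slc36a1 (-0.46, exact permutation p = 0.00433) and Slc36a4 (-0.24, p = 0.00649), which belong to the family that moves small amino acids together with protons, and Slc6a7 (-0.59, p = 0.0238), a proline carrier of neurons. The highest of their adjusted p-values was 0.667. A lower median was not particular to the diet. Against saline it was -0.095 in MAM, with 0 called higher and 2 lower, and -0.083 in Poly I:C, with 1 higher and 2 lower. Over all genes the medians were -0.070 and 0.0046, and 10.1% and 9.46% were called.

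Genes known to be switched on by ATF4 were listed without the 10 carriers, and 21 of the 22 were in the second fit. In Low Protein against saline 12 of the 21 were called higher and 0 lower, with a median log2 difference of 0.28, beside 0.11 for the 10 carriers. Of the 12516 genes 7.29% were called, 346 of them higher. The 5 with the smallest limma p were Psat1 (0.48, exact permutation p = 0.00216) and Psph (0.49, p = 0.00649) of serine synthesis, Pycr1 (0.39, p = 0.00866) of proline synthesis, Mthfd2 (0.27, p = 0.00866) of one-carbon metabolism, and Asns (0.51, p = 0.0325), which makes asparagine. The lowest of their adjusted p-values was 0.310 in the second fit and 0.232 in the fit over 5086 genes. As for Slc7a5, Slc3a2, Slc7a1 and Slc7a3, but not Slc38a2, Slc7a8 and Slc38a1, Low Protein litter 2 was the higher of the litters for these 5 genes. The means of litters 1 and 2 were 1.02 and 1.86 TPM for Asns (0.955 in saline), 0.727 and 1.11 for Psph (0.643), 2.15 and 2.85 for Psat1 (1.77), 2.33 and 2.98 for Pycr1 (2.00) and 1.15 and 1.29 for Mthfd2 (1.01). Against saline, 2 of the 21 genes were called higher in MAM and 0 lower, where 10.1% of the 12516 genes were called. In Poly I:C 4 were called higher and 1 lower, where 9.46% of the 12516 genes were. In Low Protein against MAM 10 were called higher and 1 lower, where 8.85% of the 12516 genes were called. Among the 10 were Mthfd2 with an adjusted limma p of 0.0171 in the second fit and Psat1 with 0.0413 in the fit over 5086 genes. The ATF4 list overlaps the other carriers in Slc7a11 and the sensing genes in Sesn2.

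Among 19 genes of amino acid sensing, Sesn2, a leucine sensor that is itself an ATF4 target, was the only one called in Low Protein against saline (0.43 on the log2 scale, limma p = 0.00788, adjusted p = 0.632, exact permutation p = 0.0346), and its difference of 0.42 in MAM against saline was called too. Rragd (-0.20, exact permutation p = 0.00649), Mtor (-0.13, p = 0.0498), Eif2ak4 (-0.098, p = 0.294) and Lamtor2 (0.10, p = 0.314) of the same list did not pass in limma. The median of the sensing genes in Low Protein against saline was 0.025, against -0.013 over the 12516 genes, of which 7.29% were called.

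**Figure D3:**
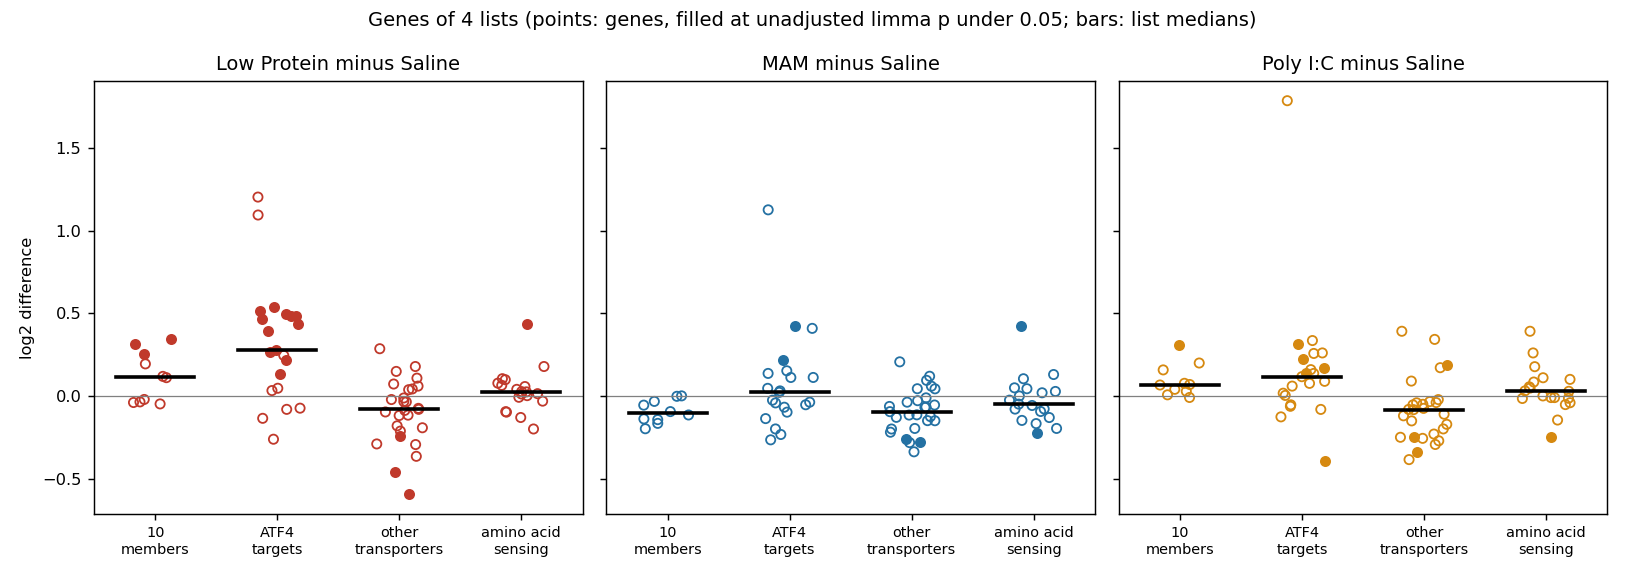
Log2 differences from saline (vertical axis) of the genes of 4 lists in the Low Protein, MAM and Poly I:C groups. Points are genes, filled where the unadjusted limma p was under 0.05, and bars are list medians, which in Low Protein were 0.11 for the 10 carriers, 0.28 for the ATF4 targets, -0.081 for the other carriers and 0.025 for the sensing genes.

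Among pups, the 2 subunits of the large neutral amino acid exchanger moved together. After the mean of each group was taken away, log2 levels of Slc7a5 and Slc3a2 correlated over the 24 pups with r = 0.93 and rho = 0.85 (permutation p of 1e-05 each, the smallest that 100000 resamples can give, adjusted p of 5.42e-05 and 0.000162 over 65 relations). The correlation was 0.87 without the 2 pups farthest from the median and 0.94 when the mean of each litter was taken away. Pups of a litter share a dam, so these are not 24 independent animals. Over the genes tested, the 5 whose levels were most like those of Slc7a5 were Slc3a2, Sipa1 (r = 0.86), Tmem176a (0.85), Tcn2 (0.85) and Adam15 (0.84), which were chosen for this and are given with no test.

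Of the 45 pairs among the 10 carriers, 23 had r above 0.5, and 8 had r below 0. The share of all gene pairs with r above 0.5 was not counted, so these counts do not show a likeness particular to the carriers. Slc7a5 correlated with Slc1a4 (r = 0.86, rho = 0.82), Slc1a5 (r = 0.83, rho = 0.68), Slc7a1 (r = 0.76, rho = 0.78), Slc6a9 (r = 0.72, rho = 0.65) and Slc7a8 (r = 0.67, rho = 0.65). The highest of their adjusted permutation p-values was 0.00119 for r and 0.00378 for rho, and without the 2 farthest pups r was 0.80, 0.68, 0.76, 0.45 and 0.73. Slc7a3 stood apart from the exchanger, with r = 0.25 to Slc7a5 and 0.19 to Slc3a2, and of its 9 pairs only that with Slc6a9 exceeded 0.5 (r = 0.68, rho = 0.53, permutation p = 0.00029, adjusted p = 0.000942). Without the 2 farthest pups its r was 0.53 with Slc6a9 and -0.19 with Slc7a5. The r of Slc38a2 exceeded 0.5 with no other carrier. With Slc38a1 its r was 0.33 and its rho 0.54 (adjusted permutation p of rho = 0.0198), and r was 0.64 without the 2 farthest pups. Its r with Slc7a5 was -0.020. When the mean of each litter was taken away, the r of Slc38a2 was 0.43 with Slc7a5, 0.55 with Slc7a1 and 0.63 with Slc6a9. All these values are over the same 24 pups and share their libraries and depths.

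Since the exchanger is a known gene of brain capillaries, its levels were set beside an endothelial score, the mean log2 value of 14 endothelial genes such as Cldn5 and Cdh5, all 14 of which were in the table. The score correlated with Slc3a2 (r = 0.91, rho = 0.81), Slc1a5 (r = 0.89, rho = 0.83), Slc7a5 (r = 0.84, rho = 0.74), Slc7a8 (r = 0.82, rho = 0.81) and Slc7a1 (r = 0.79, rho = 0.79), and without the 2 farthest pups r was 0.82, 0.82, 0.74, 0.79 and 0.71. For these 5 genes the permutation p of r was 1e-05, the smallest possible, with an adjusted p of 5.42e-05, and the highest adjusted p of rho was 0.000722. With Slc1a4, Slc38a1 and Slc6a9 the score had r of 0.70, 0.51 and 0.43, with adjusted permutation p of 0.000855, 0.0248 and 0.0644. Their rho was 0.57, 0.43 and 0.31. With Slc7a3 the score had r = -0.031 (permutation p = 0.883) and rho = -0.16 (p = 0.464), and with Slc38a2 r = 0.16 (p = 0.467) and rho = 0.21 (p = 0.328). The share of all genes that follow the score was not counted. These permutation p-values take the pups as interchangeable, but pups of a litter share a dam. The SD of the score ran from 0.095 in saline to 0.37 in Low Protein. Pups with the same number were also more alike than unrelated numbers would give. The p-values can therefore overstate the evidence, as can those of the other correlations among pups.

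The score was lowest in Low Protein pup 1-3 (-1.55) and Poly I:C pup 1-3 (-1.60), the pups with the lowest Slc7a5 and Slc3a2 of their groups, and its highest value was -0.530 in a Low Protein pup. Both pups also correlated least with the rest of their groups and had the lowest summed microglial and meningeal genes there. The sum of 6 meningeal genes ran from 3.96 to 34.5 TPM in Low Protein and from 6.97 to 17.8 in Poly I:C, and that of 10 microglial genes from 10.6 to 26.4 and from 12.7 to 19.0. The sum of 6 choroid plexus genes was 32.8 TPM in Poly I:C pup 1-3, against a group median of 173. The part of these cells in the levels of the carriers was not tested. The summed level of the 14 genes ran from 52.6 to 72.4 TPM in saline, 42.9 to 89.7 in Low Protein, 57.8 to 71.9 in MAM and 47.0 to 79.5 in Poly I:C. Between Low Protein and saline the score differed by -0.050 (exact permutation p = 0.766), and 0 of the 14 genes were called. With the score as a covariate, a fit chosen after the values were seen, the Low Protein difference from saline was 0.29 for Slc7a5, 0.23 for Slc3a2, 0.38 for Slc7a1 and 0.31 for Slc7a3, and limma called all 4. The standard error was then 0.066 for Slc7a5, 0.053 for Slc3a2, 0.088 for Slc7a1 and 0.14 for Slc7a3, against 0.11, 0.11, 0.14 and 0.14 without the covariate. Of the 5086 genes, 532 were called with the covariate and 419 without it, and 0 in either fit after adjustment.

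**Figure D4:**
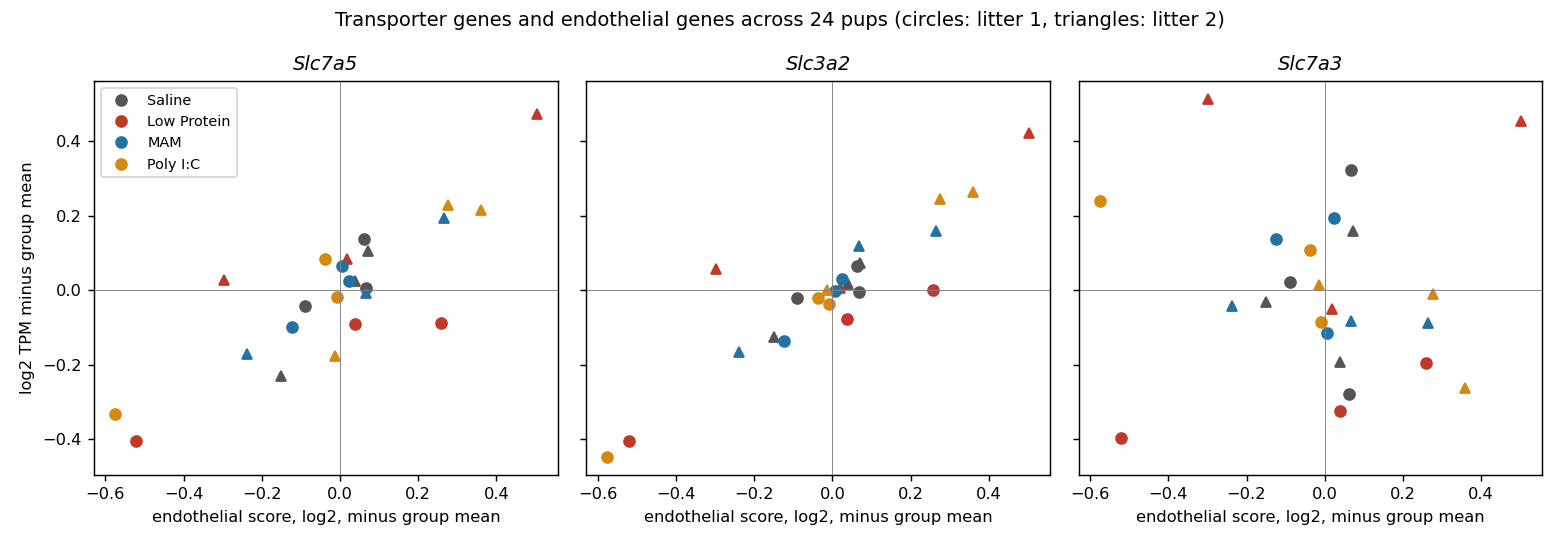
Log2 TPM of Slc7a5, Slc3a2 and Slc7a3 (vertical axis) against the endothelial score (horizontal axis, log2), each minus its group mean, for 24 pups. Circles are litter 1 and triangles litter 2. Slc7a5 (r = 0.84) and Slc3a2 (r = 0.91) rise along the score, and Slc7a3 (r = -0.031) does not.

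The same was done with the mean log2 value of the ATF4 targets, which had r = 0.75 with Slc3a2 and 0.72 with Slc7a5 (rho = 0.57 and 0.47, adjusted permutation p of r = 0.000303 and 0.000614, of rho = 0.0125 and 0.0511). Without the 2 farthest pups these r were 0.54 and 0.41. With Slc1a4, Slc6a9 and Slc1a5 r was 0.67, 0.64 and 0.61, or 0.48, 0.14 and 0.16 without the 2 farthest pups. With Slc7a1, Slc7a8 and Slc38a1 r was 0.49, 0.43 and 0.29. With Slc7a3 the mean of the ATF4 targets had r = 0.49, which was 0.15 without the 2 farthest pups. With Slc38a2 r was -0.020, or 0.46 when the mean of each litter was taken away.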

How the data were processed

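RNA from the hippocampus and neocortex of 24 rat pups was sequenced from stranded mRNA libraries with paired reads of 100 bases. The authors trimmed reads at a phred score of 30 and aligned them with STAR 2.4.1d to rn6 in Partek Flow. They quantified RefSeq genes, normalized to TPM and added an offset of 0.0001, and these TPM were deposited. The TPM of each pup sum to 70350.1. Read counts were not recovered, since only 46.0% to 54.2% of low values lay within 0.05 of whole multiples, and the depths given are estimates.

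Log2 TPM were compared with limma 3.58.1 in R 4.3.3, over all 4 groups, in the 5086 genes with every group mean above 1 and, for carriers below it, in the 12516 genes whose mean reached 0.01. A gene was called at an unadjusted limma p under 0.05, and adjusted values follow Benjamini and Hochberg over all genes of a fit. Exact two-sided permutation tests compared 6 pups with 6 (924 splits, smallest p 0.00216) and are unadjusted. The design had planned an adjustment over the 50 exact tests of the carriers, which is not given because the carriers were chosen. Leave-out results state the difference and the limma call. Python 3.11.15, numpy 2.4.6, scipy 1.17.1, pandas 2.3.3 and matplotlib 3.10.9 were used, and the fit was tested on simulated data.

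The carriers and lists were chosen with earlier results of these data known. Besides the 10 carriers, the text names each other carrier called in Low Protein against saline, the 5 ATF4 targets and 5 sensing genes with the smallest p there, and the 5 genes most like Slc7a5. Alternatives changed the filter, pseudocount, scaling, variance, block, samples and test, and left out each pup and each litter. An endothelial covariate and leaving out the least correlated pup of each group were chosen after seeing the data. The left-out set was revised once, after results with 3 of its 4 pups left out had been seen. The litter was read from the sample titles.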

Additional observations from a re-analysis of the deposited data

Results flagged for a closer look

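Of 40 sets of 6 pups (10 carriers in 4 groups), 1 held a value far from the others. Slc1a4 measured 0.541 TPM in Poly I:C pup 1-3, and 0.751 to 0.903 TPM in the other 5 Poly I:C pups. Its gap to the nearest pup was 0.640 of the range of the group, above the critical value of Dixon's test. Chance alone gives about 1 such set in 20. Without this pup the Slc1a4 difference between Low Protein and MAM, which shares the estimate of the spread, passed the threshold in limma at an unchanged 0.23 on the log2 scale.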

How the results depend on the processing

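In all, 46 alternatives were run for 23 differences of carriers. Of these 1058 values 945 kept direction and side of the threshold, 37 lost the call, 48 gained it and 28 changed sign; the cause was not tested.

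Counts are given in the order Low Protein, MAM and Poly I:C against saline, then Low Protein against MAM and Poly I:C. Genes called were 913, 1268, 1184, 1108 and 591 with the filter at 0.01, 1070, 1487, 1376, 1304 and 775 with no filter (more genes tested), and 262, 250, 312, 352 and 164 on litter means. The rank sum test called 331 for Poly I:C. Without the least correlated pup of each group, an alternative chosen after seeing the data and revised once, 1187 were called for MAM and 486 for Low Protein against Poly I:C.

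After adjustment, MAM against saline had 2 genes with the filter at 0.01, 3 with no filter, 2 with the endothelial covariate and 0 with 12 pups, litter means, the replicate block, the rank sum test or the least correlated pups left out. Low Protein against MAM had 8 with no filter, 3 with a pseudocount of 1, 3 with upper-quartile scaling, 2 with median-of-ratios scaling or a random litter block, 0 with litter means or rank sums, 18 with the covariate and 11 without the least correlated pups. Low Protein against Poly I:C had 1 with a pseudocount of 1, either scaling or the random litter block, 0 with 12 pups, litter means or rank sums, 5 with the covariate and 4 without the least correlated pups.

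Of the 4 carriers above the limit, Low Protein against saline had 1 called with 12 pups or rank sums and 0 with litter means. Low Protein had 3 called against saline, and 3 against MAM, with the covariate or without the least correlated pups. Poly I:C against saline had 1, Slc38a2, with 12 pups or rank sums. With the filter at 0.01 or none, where all 10 carriers were tested, it had 1, Slc7a1. MAM had 1 without the least correlated pups. Low Protein against Poly I:C had 2 with the covariate and 1 without the least correlated pups.

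Pups sharing a number were not taken as pairs in the main fit or the exact tests, since the titles do not state a pairing. Of 36 such pairs 22 had r above 0.1 (r from -0.42 to 0.56, median 0.16). Own-number best matches came to 12 of 24 pups, where unrelated numbers would give 4, so pups of a number were more alike than that. What a shared number stands for was not tested. With the replicate block 596, 794, 652, 714 and 354 genes were called, more than without it in all 5 comparisons. After adjustment 0 genes were called in MAM. Of the 4 carriers above the limit, 3, 0, 0, 3 and 1 were called.

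Leaving out a pup or litter gave 271 to 530, 163 to 862, 228 to 964, 268 to 990 and 130 to 751 genes. After adjustment 0 to 9, 0 to 2, 0 to 219, 0 to 13 and 0 to 4 genes were called. Of the 4 carriers above the limit, 0 to 3, 0 to 2, 0 to 1, 1 to 3 and 0 to 4 were called. In Low Protein against saline, log2 differences then ran from -0.15 to 0.054 for Slc7a8, -0.069 to 0.29 for Slc1a4, -0.29 to 0.22 for Slc1a5, -0.11 to 0.028 for Slc38a1, -0.19 to 0.15 for Slc38a2 and -0.093 to 0.33 for Slc6a9. Against Poly I:C they ran from -0.0099 to 0.38 for Slc7a5, -0.091 to 0.16 for Slc7a1 and -0.069 to 0.54 for Slc7a3. Slc7a8 changed sign with the covariate (0.0047), and Slc1a5 with a pseudocount of 1 (0.0043), the covariate (0.032) and without the least correlated pups (0.20). Depth limits Slc1a5 most, at 96 reads in its lowest pup.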
